A study of Homo sapiens with 4 samples.

Results

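The pyruvate dehydrogenase complex and the enzymes that switch it off and on were followed in the cell line PLC/PRF/5, derived from a human hepatocellular carcinoma, after knockdown of USP22 in hypoxia. The genes considered were the kinases PDK1, PDK2, PDK3 and PDK4, the phosphatases PDP1 and PDP2, and the complex subunits PDHA1, PDHB, DLAT and PDHX. Members were taken by gene symbol from the deposited count table, which gives 1 row per RefSeq mRNA accession. Of the 10 genes, 8 were found, with 10 of the 14540 rows of the table, and PDHB and PDHX were not analysed here. Where a gene had several rows, the one with the highest summed count is its main row. A USP22 knockdown group of 2 libraries, made with lentivirus-delivered shRNA against USP22, was set against a control group of 2 libraries carrying a negative control. The hypoxia, 48 h in 1% oxygen with 5% carbon dioxide, is shared by both groups, and no normoxic library was analysed here.

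Pyruvate dehydrogenase sits in the mitochondrial matrix and turns pyruvate from glycolysis into acetyl-CoA for the tricarboxylic acid cycle. The kinases phosphorylate the alpha subunit encoded by PDHA1 and thereby inactivate the complex, and the phosphatases reverse this. PDK1 and PDK3 are known to be induced by hypoxia-inducible factors, which spares oxygen by limiting the conversion of pyruvate into acetyl-CoA, while PDK4 is known for its induction in fasting liver and muscle.

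The 250 bases before the RefSeq start site are shown for the 3 kinase genes whose main row passed the test, because hypoxia-inducible factors bind a 5-letter core that reads ACGTG or GCGTG. The sequences are from RefSeq on GRCh38.p14, read 5′ to 3′ on the strand of the gene, and capitals mark either core on either strand. The windows are chr2:172555840-172556089 (plus strand) for PDK1, chrX:24465036-24465285 (plus strand) for PDK3 and chr7:95596517-95596766 (minus strand) for PDK4.
PDK1: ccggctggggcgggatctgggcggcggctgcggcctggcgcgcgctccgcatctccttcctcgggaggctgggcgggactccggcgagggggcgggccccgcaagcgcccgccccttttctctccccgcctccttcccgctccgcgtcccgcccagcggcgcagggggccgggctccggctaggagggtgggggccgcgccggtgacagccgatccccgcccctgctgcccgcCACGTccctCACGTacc
PDK3: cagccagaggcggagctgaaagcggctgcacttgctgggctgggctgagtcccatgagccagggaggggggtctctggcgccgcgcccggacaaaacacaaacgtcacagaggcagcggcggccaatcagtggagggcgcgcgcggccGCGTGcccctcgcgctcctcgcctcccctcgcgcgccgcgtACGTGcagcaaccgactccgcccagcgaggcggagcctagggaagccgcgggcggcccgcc
PDK4: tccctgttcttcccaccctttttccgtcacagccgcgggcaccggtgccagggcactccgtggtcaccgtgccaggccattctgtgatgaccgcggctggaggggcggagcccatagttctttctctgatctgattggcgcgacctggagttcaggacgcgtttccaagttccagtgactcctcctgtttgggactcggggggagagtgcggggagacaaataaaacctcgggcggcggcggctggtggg
The PDK1 window holds 2 ACGTG cores, both on the minus strand, beginning 17 and 8 bases before the start site. The PDK3 window holds 1 GCGTG core, 102 bases before the start site, and 1 ACGTG core, 61 bases before it. No core was found in the PDK4 window. PDK1 has another annotated start, whose window holds no core. The window shown is the one nearest to the GENCODE model of the counted transcript, which begins 83 bases before the RefSeq start, so that the last 83 bases of the window and both cores lie inside the model. The GENCODE models of the counted PDK3 and PDK4 transcripts begin 170 and 25 bases after the RefSeq start, outside the windows. The DLAT window is not shown, because the GENCODE model of its counted transcript begins 594 bases before the RefSeq start and all 250 bases of the window lie after that. No window of PDP1, which also has a row in the table, was read. Among 10 windows of the other 7 members with a row, that of DLAT included, 6 held at least 1 core. Of all 35116 promoter windows of the same length, 43.2% did. The same 6 held at least 2, against 19.4% of all windows. Besides the PDK1 and PDK3 windows shown, these were the windows of DLAT, PDP2 and PDHA1 and 1 of PDK2, with 3 cores each. A CACGTG was counted on both strands and so as 2 cores. These are matches of letters and not sites of binding.

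Library totals ranged from 15027209 to 17194929 counts. Levels are given as CPM, the count scaled to the TMM-normalized library size. USP22, the targeted gene, had 5438 and 7683 counts in the knockdown libraries and 46513 and 41607 counts in the control libraries, which left 14.6% of the control level in CPM. Of the 10 listed hepatoma genes, all 10 were tested, 4 rose, 0 fell and 6 did not pass. Over all tested rows, 8.49% rose and 10.2% fell. Albumin (ALB) had 641 ± 132 CPM in knockdown and 726 ± 98.2 CPM in control cells, and alpha-fetoprotein (AFP) had 806 ± 42.7 CPM in knockdown and 370 ± 90.9 CPM in control cells (SD, n = 2 each). Of 12 genes that mark blood, endothelial and stromal cells, 7 had a row, and their summed level was 68.5 to 75.0 CPM in knockdown and 69.5 to 76.2 CPM in control libraries. Of the 5 that were tested 1 rose, 1 fell and 3 did not pass, and the 2 called genes are named after their values were seen. The endothelial gene PECAM1 rose, with 25.3 ± 4.19 CPM in knockdown and 12.4 ± 3.32 CPM in control cells (SD, n = 2 each; adjusted p = 0.0185, edgeR). The haemoglobin gene HBB fell, with 0 and 1 counts in the knockdown libraries and 45 and 40 counts in the control libraries (adjusted p = 0.0011, edgeR). The part of either in the results on the members was not tested. Whether replicates were separate cultures is not stated in the labels, so p-values measure the spread between these libraries, which may be technical.

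Between knockdown and control, the main rows of 4 members changed, 2 in each direction. Those of the kinase genes PDK1 and PDK3 fell, whereas those of the kinase gene PDK4 and the core subunit gene DLAT rose. Of the 10 rows 7 passed the filter on low counts, among them the main rows of 6 members. Of these 6, 2 rose, 2 fell and 2 did not pass in edgeR's quasi-likelihood test with Benjamini-Hochberg adjustment over all tested rows at a threshold of 0.05. Over all 12337 tested rows, 18.7% were called, 8.49% as higher and 10.2% as lower. The median log2 fold change was 0.76 over the 6 main rows and 0.00074 over all tested rows. With 2 called rows in each direction, this median describes neither. The 2 groups did not overlap for 5 of the 6 main rows, against 59.6% of all tested rows. The knockdown libraries were the higher for 3 of these, against 29.3% of all tested rows, and the lower for 2, against 30.3%. In the plot of levels by library each of the 10 rows is shown.

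**Figure D1:**
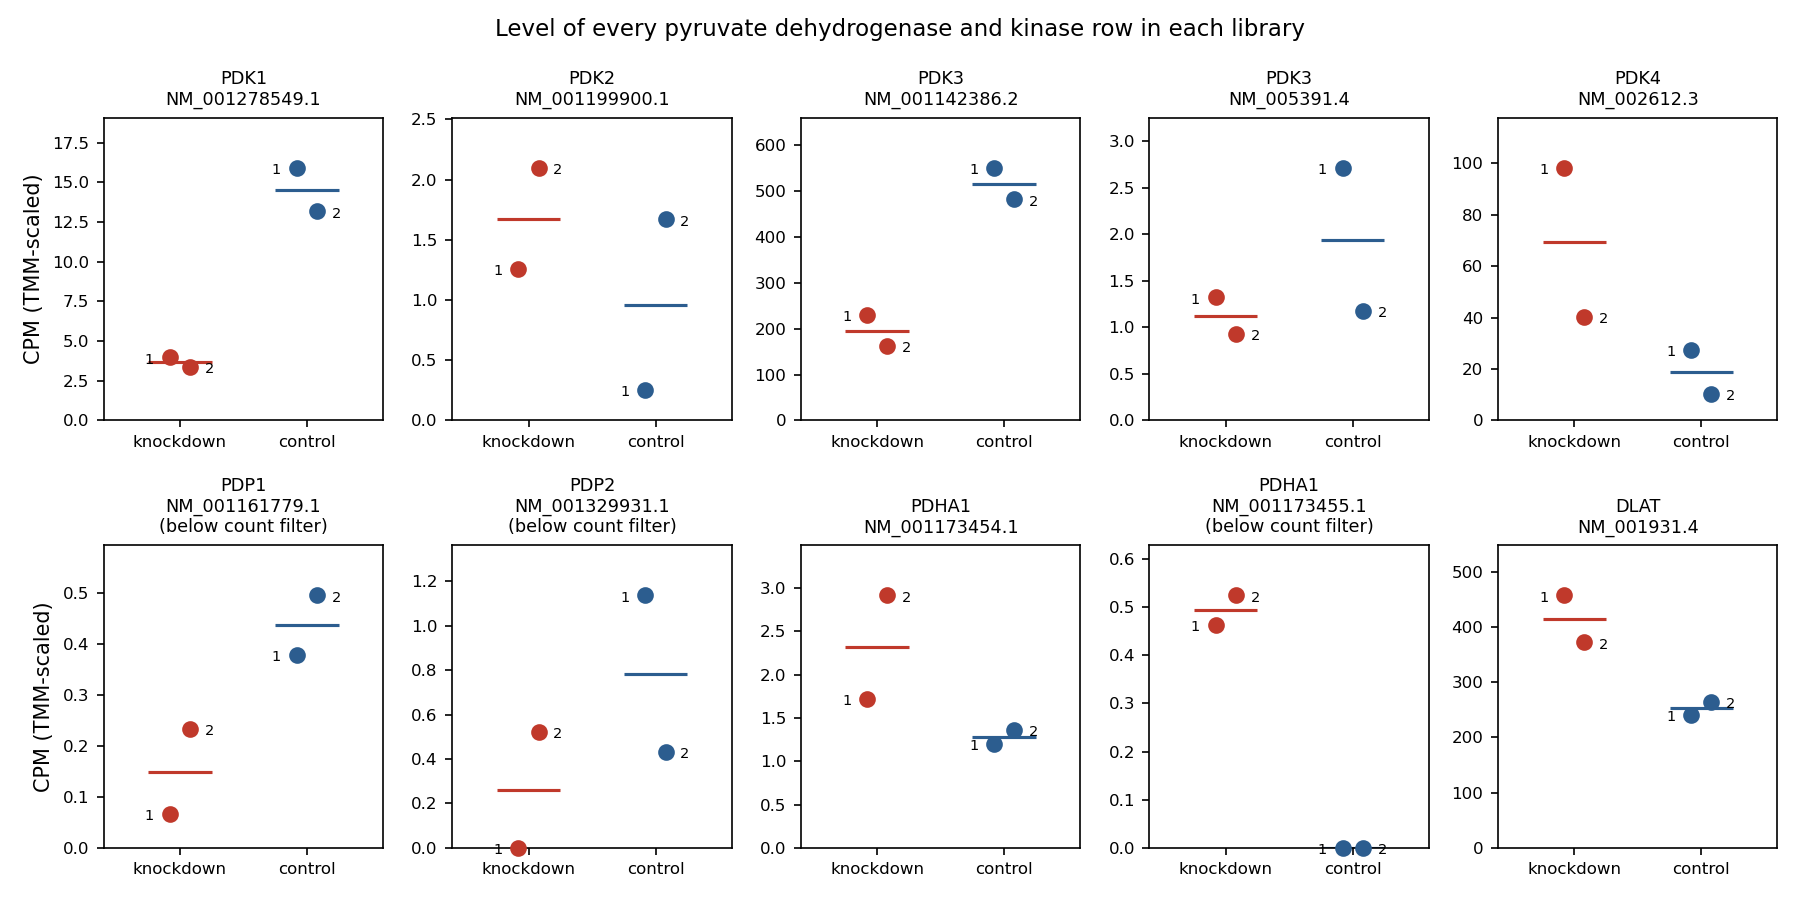
Level of each of the 10 rows in CPM (vertical axes, each from 0 and with its own scale) in the knockdown and control libraries. Points are single libraries with their replicate number and lines are group means; the knockdown points of PDK1 and of the main PDK3 row lie below both control points, and those of PDK4 and DLAT lie above them.

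PDK1, the kinase best known from hypoxic cells, had 60 and 58 counts in the knockdown libraries and 252 and 213 counts in the control libraries. In CPM it averaged 3.67 ± 0.417 in knockdown and 14.5 ± 1.94 in control cells (SD, n = 2 each). The libraries of each group lay close together and the groups did not overlap. PDK1 fell by 1.98 ± 0.31 (SE) on the log2 scale, or 3.96-fold, with a 95% interval of −2.66 to −1.31 and an adjusted p of 0.000843 (edgeR). Of the changes of all tested rows, 3.93% were as low or lower. For this row the authors' deposited table has −1.97, with a q-value of 8.38e-09.

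The counted PDK1 row is the accession NM_001278549.1, and RefSeq lists 2 mRNA accessions for the gene. In the GENCODE models 104 of the 1515 bases of this transcript are absent from the other RefSeq transcript of PDK1. The library kit does not mark strand, and 258 bases of the PDK1 transcript overlap an antisense gene, AC078883.1, but 0 of the 104 unshared bases do. The other PDK1 isoform was not analysed here. The fall is therefore that of this row, and a change of isoform use was not tested.

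PDK3 is a kinase isoform also known to be induced by hypoxia. Its main row, NM_001142386.2, had 3466 and 2777 counts in the knockdown libraries and 8710 and 7785 counts in the control libraries. The level averaged 195 ± 47.7 CPM in knockdown and 516 ± 48.5 CPM in control cells (SD, n = 2 each). Both knockdown libraries were below both control libraries, with a gap larger than the spread within either group. PDK3 fell by 1.40 ± 0.19 (SE) on the log2 scale, a 2.64-fold decrease, with a 95% interval of −1.80 to −0.995 and an adjusted p of 0.00028 (edgeR). For this row the authors' deposited table has −1.38, with a q-value of 2.53e-15.

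The other PDK3 row, NM_005391.4, had 20 and 16 counts in the knockdown libraries and 43 and 19 counts in the control libraries, and the groups overlapped. Its log2 fold change of −0.79 ± 0.64 (SE) did not pass (adjusted p = 0.444, edgeR), and the 95% interval of −2.17 to 0.60 holds the change of the main row. The models of the PDK3 transcripts differ in 704 bases found only in the main transcript and 592 found only in the other. The main row took 99.4% of the PDK3 counts in each knockdown library (95% Wilson intervals 99.1% to 99.6% and 99.1% to 99.7%). In the control libraries it took 99.5% (99.3% to 99.6%) and 99.8% (99.6% to 99.8%), where the intervals cover counting error only.

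PDK4, the kinase known from fasting, moved the other way. Its row, NM_002612.3, had 1484 and 692 counts in the knockdown libraries and 433 and 165 counts in the control libraries. The level averaged 69.2 ± 40.9 CPM in knockdown and 18.8 ± 12.1 CPM in control cells (SD, n = 2 each). The groups did not overlap, but within each group replicate 1 was well above replicate 2, by a factor of 2.43 in knockdown and 2.68 in control. PDK4 rose by 1.88 ± 0.42 (SE) on the log2 scale, a 3.68-fold increase, with a 95% interval of 0.97 to 2.80 and an adjusted p of 0.00769 (edgeR).

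The call of PDK4 depends on the test. With DESeq2 it did not pass (log2 fold change 1.90, adjusted p = 0.137), and the authors' deposited table lists the row at 1.90 with a q-value of 0.112. In edgeR the change was 2.76 without control replicate 1 and 1.14 without knockdown replicate 1, and across the 9 alternatives the adjusted p ranged from 7.85e-22 to 0.137. Of the changes of all tested rows, 1.79% were as high or higher. RefSeq lists 1 mRNA accession for PDK4, and no other gene overlaps its exons in the GENCODE annotation.

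PDK2, the kinase isoform found in most tissues, was read from few counts in 1 row. The row NM_001199900.1, 1 of 4 RefSeq mRNA accessions of the gene, had 19 and 36 counts in the knockdown libraries and 4 and 27 counts in the control libraries. The groups overlapped, and the log2 fold change of 0.80 ± 0.79 (SE) did not pass (adjusted p = 0.537, edgeR). Its 95% interval of −0.90 to 2.49 includes changes in either direction, so none could be read for PDK2 from these counts.

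**Figure D2:**
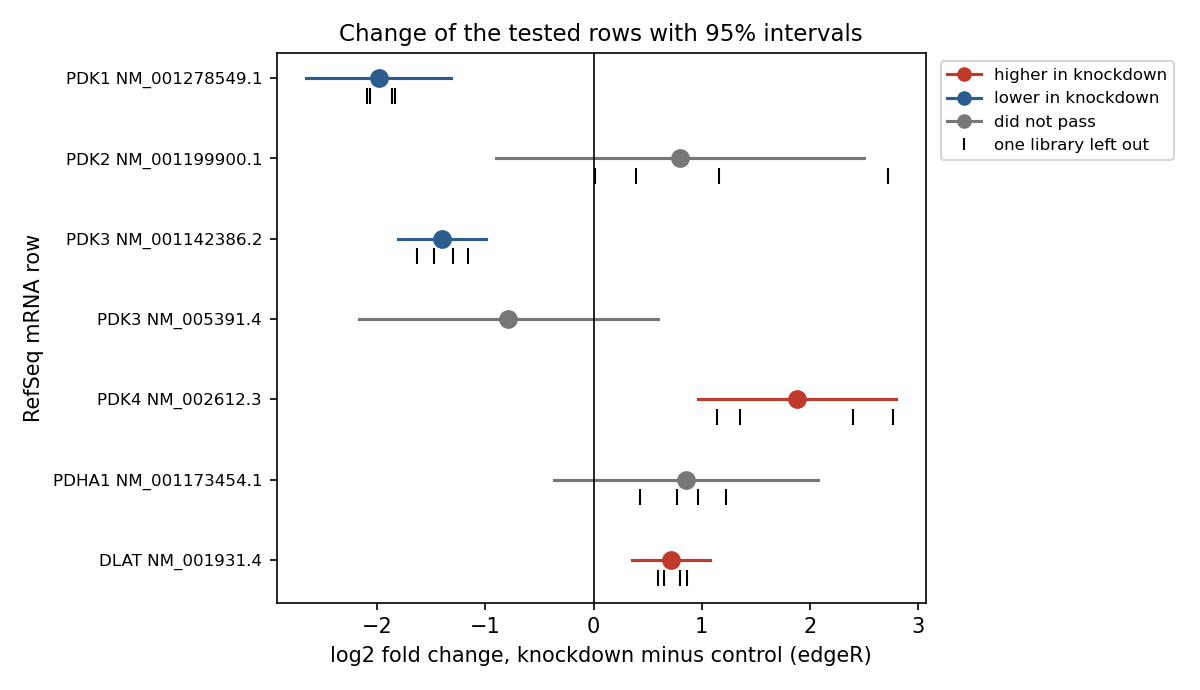
Log2 fold change of the 7 tested rows, knockdown minus control (horizontal axis), with 95% intervals from edgeR (lines), and for main rows the values with one library left out (ticks). The intervals of PDK1 and of the main PDK3 row lie below 0 and those of PDK4 and DLAT above 0, and the ticks of PDK4 spread from 1.14 to 2.76.

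The kinases were also compared within each library, where the scaling between libraries cancels. The paired rows had already been called in this contrast, so the ratios restate those changes and are no separate support. The PDK4 count divided by that of the main PDK3 row was 0.428 and 0.249 in the knockdown libraries and 0.0497 and 0.0212 in the control libraries. This ratio was on average 10.1 times higher in knockdown (3.33 on the log2 scale), and the groups did not overlap. The ratio of PDK1 to PDK3 counts was 0.0173 and 0.0209 in knockdown and 0.0289 and 0.0274 in control libraries, a difference of −0.57 on the log2 scale. With 2 libraries against 2 a two-sided exact permutation test cannot go below p = 0.333, the value it gave for both ratios. The ratios show an unequal change of the counts and not the relative abundance of the kinases, since rows differ in length and in the share of reads they hold.

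DLAT encodes the dihydrolipoamide acetyltransferase that forms the core of the complex and to which the kinases bind. It had 6907 and 6382 counts in the knockdown libraries and 3808 and 4275 counts in the control libraries. The level averaged 414 ± 60.1 CPM in knockdown and 252 ± 16.9 CPM in control cells (SD, n = 2 each), with no overlap between the groups. DLAT rose by 0.71 ± 0.17 (SE) on the log2 scale, a 1.64-fold increase, with a 95% interval of 0.36 to 1.07 and an adjusted p of 0.00926 (edgeR). It no longer passed when control replicate 1 was left out (0.65, adjusted p = 0.0803), and the 9 alternatives gave adjusted p-values from 3.16e-06 to 0.0803. The authors' deposited table has 0.73 for DLAT, with a q-value of 2.29e-06. RefSeq lists 13 mRNA accessions for DLAT, of which the table held 1.

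Within libraries, the DLAT count was 1.99 and 2.30 times that of the main PDK3 row in knockdown, and 0.437 and 0.549 times in control. This quotient of a core subunit to a kinase was 4.37 times higher in knockdown (2.13 on the log2 scale). The exact two-sided permutation test gave p = 0.333, the smallest that 2 against 2 libraries allow. Both rows had already been called in opposite directions, so the quotient restates those changes. DLAT shares 212 exonic bases with PIH1D2 on the opposite strand. The row of PIH1D2 held 8 and 11 counts in knockdown and 18 and 11 counts in control libraries. The part of this overlap in the DLAT counts was not tested.

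PDHA1, the alpha subunit of the dehydrogenase itself and the target of the kinases, was read from few counts. Its main row, NM_001173454.1, had 26 and 50 counts in the knockdown libraries and 19 and 22 counts in the control libraries. Both knockdown libraries were above both control libraries, but the log2 fold change of 0.85 ± 0.56 (SE) did not pass (adjusted p = 0.329, edgeR), with a 95% interval of −0.36 to 2.07. Only 114 of the 3484 bases of this transcript are absent from the other RefSeq transcripts of PDHA1. The gene shares 956 exonic bases with MAP3K15 on the opposite strand, of which 0 are among the 114 unshared bases. The row of MAP3K15 held 625 and 641 counts in knockdown and 718 and 733 counts in control libraries. The part of this overlap in the PDHA1 counts was not tested.

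A further PDHA1 row, NM_001173455.1, was below the filter, with 7 and 9 counts in the knockdown libraries and 0 and 0 counts in the control libraries. The pooled ratio of knockdown to control levels had an exact 95% lower limit of 3.82, which covers counting error only. In the GENCODE model 21 of its 3391 bases are absent from the other RefSeq transcripts. In the authors' deposited table this row stands at 5.44 on the log2 scale with a q-value of 0.0584. RefSeq lists 4 mRNA accessions for PDHA1, of which the table held 2. With these rows of PDHA1 summed, the log2 fold change was 1.15 ± 0.54 (SE) and did not pass (adjusted p = 0.152, edgeR).

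The rows of the phosphatases that reactivate the complex were below the filter on low counts. The calcium-stimulated phosphatase gene PDP1 had 1 and 4 counts in the knockdown libraries and 6 and 8 counts in the control libraries. PDP2 had 0 and 9 counts in the knockdown libraries and 18 and 7 counts in the control libraries, and its groups overlapped. The ratio of pooled knockdown to control levels was 0.354 for PDP1 (0.0998 to 1.04) and 0.357 for PDP2 (0.147 to 0.79), with exact 95% intervals that cover counting error only. When no filter was applied, edgeR gave adjusted p = 0.509 for PDP1 and 0.479 for PDP2. RefSeq lists 4 and 8 mRNA accessions for PDP1 and PDP2, of which the table held 1 each.

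**Figure D3:**
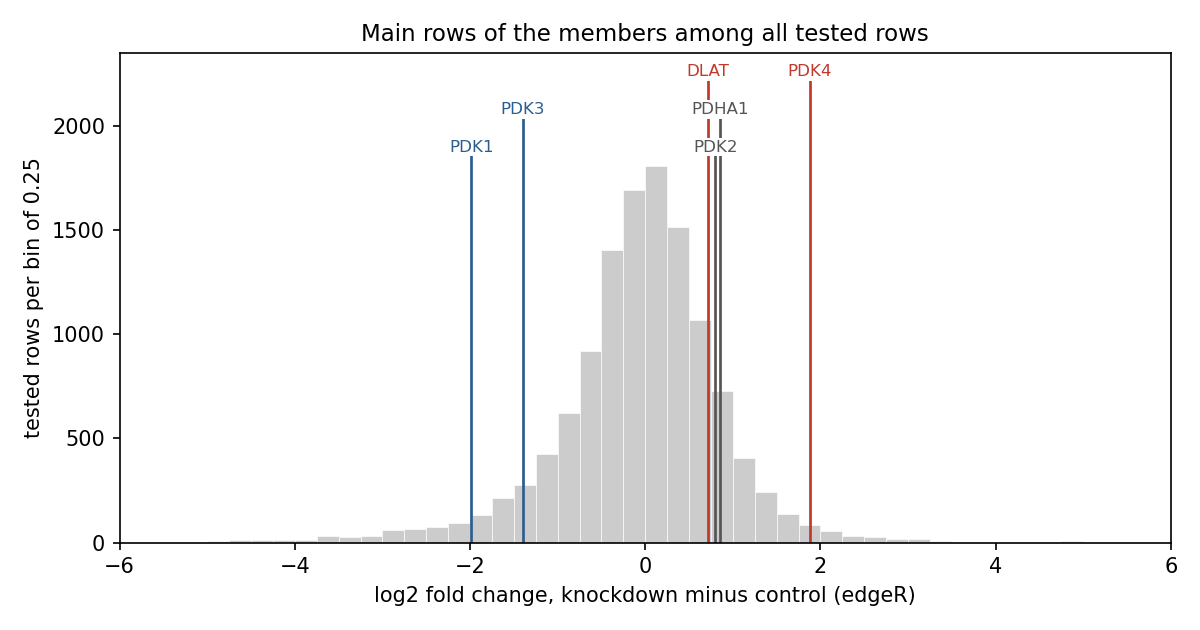
Distribution of log2 fold changes, knockdown minus control, over the 12337 tested rows (grey bars, rows per bin of 0.25), with the main rows of the 6 tested members as lines. PDK1 and PDK3 lie in the lower tail, PDK4 in the upper tail, and PDK2, PDHA1 and DLAT lie close together between 0.71 and 0.86; 30 rows beyond 6 in either direction are outside the axis.

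Genes around the complex were read from 4 lists. Over all 12337 tested rows, 18.7% were called, 8.49% as higher and 10.2% as lower. With so few genes per list, the counts below are descriptions beside these shares, and no set was tested. DLAT carries lipoic acid, and the first list held 13 genes. Most are of lipoic acid attachment, iron-sulfur supply and pyruvate entry, and DLD and PDPR were listed with them. Of the 13 genes 6 were tested, 0 rose and 1 fell, and the other 5 did not pass. The median of their log2 fold changes was −0.03. The genes of lipoic acid attachment were not among these 6. LIAS and LIPT1 were below the filter, with at most 9 counts in any library, and LIPT2 was not analysed here. PDPR was also below the filter, with 12 and 7 counts in knockdown and 8 and 3 in control libraries. The one that fell was ISCA1, a mitochondrial iron-sulfur assembly factor, with 130 ± 0.891 CPM in knockdown and 461 ± 2.98 CPM in control cells (SD, n = 2 each). Its log2 fold change was −1.82 ± 0.16 (SE, adjusted p = 1.02e-05, edgeR). DLD, the third catalytic subunit, was not analysed here.

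The related complexes for 2-oxoglutarate and branched-chain amino acids showed no call among the genes tested. The phosphatase gene of the branched-chain complex, PPM1K, was among these, but the kinase gene of the same complex, BCKDK, was not analysed here. OGDH, named after its values were seen, had 12 and 23 counts in knockdown and 26 and 3 in control libraries. Its 95% interval was −1.67 to 2.13, so an absence of change could not be read from that row. Of 9 genes 6 were tested and 6 did not pass in edgeR's quasi-likelihood test, with 0 rising and 0 falling at the adjusted threshold and a median log2 fold change of 0.24. An unadjusted p under 0.05 was reached by 1 of them, DLST, the core subunit of the 2-oxoglutarate complex (1.08 ± 0.46, adjusted p = 0.125, edgeR), which is named after its value was seen. DESeq2 called 0 of them.

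Other routes of pyruvate were covered by 15 genes of lactate, alanine, oxaloacetate, phosphoenolpyruvate and citrate metabolism. Of these 14 were tested, 1 rose and 2 fell, and the other 11 did not pass. The median of their log2 fold changes was −0.01. Some of these rows held few counts, among them LDHA and PKM, which are named after their values were seen. LDHA had 34 and 30 counts in knockdown and 26 and 38 in control libraries, with a 95% interval of −1.13 to 1.13. PKM had 21 and 19 counts in knockdown and 44 and 34 in control libraries, with an interval of −2.15 to 0.22. From such rows an absence of change could not be read. SLC16A3, the lactate exporter, had 4 and 3 counts in the knockdown libraries and 43 and 40 counts in the control libraries (−3.53 ± 0.72, adjusted p = 0.00462, edgeR), and −2.39 with rows summed per gene. GPT2, the mitochondrial alanine aminotransferase, averaged 31.1 ± 3.25 CPM in knockdown and 74.9 ± 1.68 CPM in control cells (SD, n = 2 each; −1.27 ± 0.19, adjusted p = 0.000729, edgeR). CS, the citrate synthase that takes up the acetyl-CoA made by the complex, rose, with 626 ± 57.1 CPM in knockdown and 433 ± 0.14 CPM in control cells (0.53 ± 0.15, adjusted p = 0.0281, edgeR). CS did not pass when control replicate 1 (adjusted p = 0.155), control replicate 2 (0.128) or knockdown replicate 2 (0.0674) was left out, and the 9 alternatives gave adjusted p-values from 0.000447 to 0.155.

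The list of 10 transcription factors and coactivators reported to act on PDK genes, among them the PPAR family, FOXO1 and FOXO3, had 9 tested members. None of the 9 passed in edgeR's test, and 0 rose and 0 fell. The median of their log2 fold changes was −0.01. An unadjusted p under 0.05 was reached by 1 of them, HNF4A, a liver transcription factor named after its value was seen, whose row had 23 and 18 counts in the knockdown libraries and 1 and 5 counts in the control libraries (adjusted p = 0.0584, edgeR). DESeq2 called 0 of them. The genes past the threshold in these lists are named in the plot of genes around the complex.

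**Figure D4:**
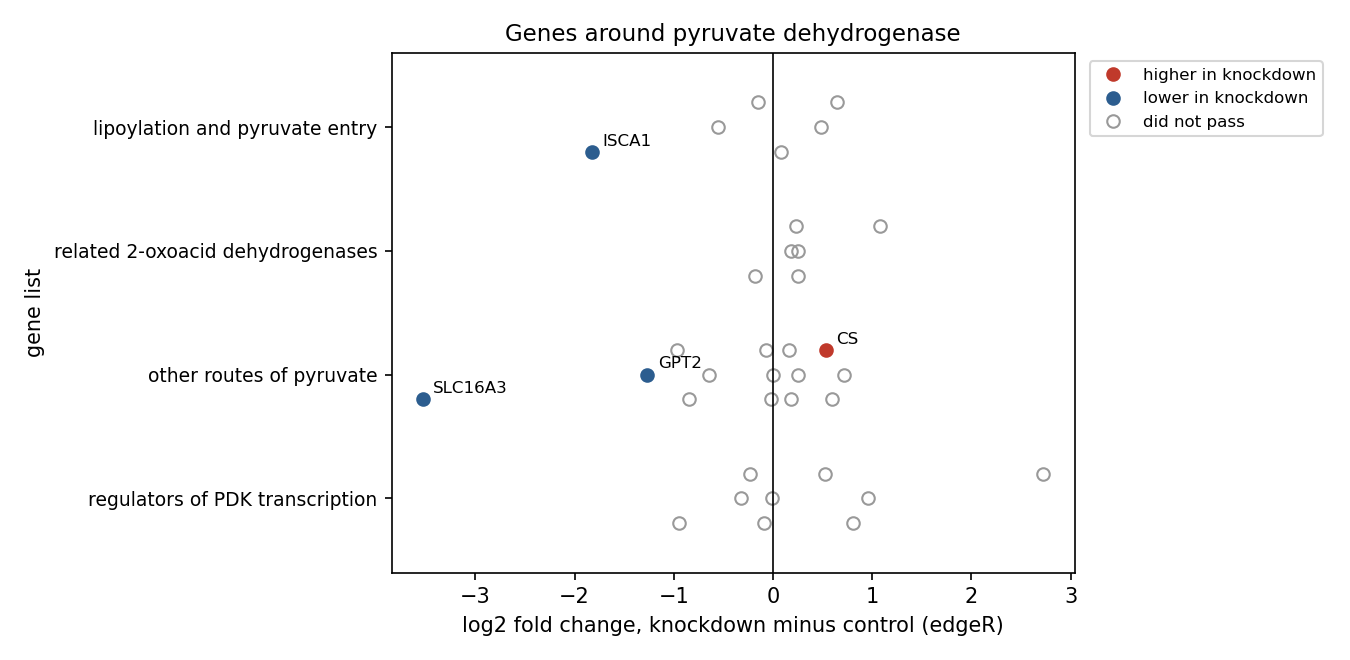
Log2 fold change of the tested genes of the 4 lists, knockdown minus control (horizontal axis), with filled points for genes past the threshold. The filled points are ISCA1, SLC16A3 and GPT2 below 0 and CS above 0, and no gene of the related dehydrogenases or of the regulators of PDK transcription is filled.

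The rows most like PDK1 over the 4 libraries were found by the Euclidean distance between log2(CPM + 0.5) values centred on the mean of each row, among 5730 tested rows of other genes with a mean of at least 10 CPM. They were SBK3 (distance 0.124), WSB1 (0.147), the recognition subunit of a ubiquitin ligase, and PLXNA3 (0.16), a receptor for semaphorins. WSB1 had 102 and 84.6 CPM in the knockdown libraries and 393 and 285 CPM in the control libraries. The rows most like the main PDHA1 row were C19orf66 (distance 0.0584), an antiviral factor, PROC (0.0637), the anticoagulant protein C, and ZFPM1 (0.075), a cofactor of GATA factors. The 0.5 CPM added reduces the change of a low row more than that of the candidates. The main PDHA1 row averaged 2.32 CPM in knockdown and 1.28 CPM in control cells, and its change did not pass. Over 4 libraries such distances reflect mainly the change between the groups and the order of the libraries within each group, and they are a description with no test.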

How the data were processed

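RNA of 4 libraries was measured by sequencing, 2 with USP22 knockdown and 2 control, grouped by sample title. Per the labels' protocols, mRNA was isolated from 1 µg of total RNA and libraries were made with NEBNext Ultra RNA, which does not mark strand. The authors deposited raw counts per RefSeq mRNA accession, and beside them their own comparison as log2 fold change with p-value and q-value. Named in the submitters' processing notes are hg19 and the tools HTSeq, HISAT2 2.1.0 and bcl2fastq. The sources used here give neither the counting rule nor the tool behind the deposited p-values, and the lowest row sum is 14 counts.

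Rows were filtered with filterByExpr (minimum count 10), which left 12337 of 14540, scaled by TMM (factors 0.979 to 1.01) and tested with edgeR 4.0.16 in R 4.3.3 (glmQLFit, glmQLFTest) with no covariate. The common coefficient of variation was 22.1%. Library totals were 15027209 to 17194929 counts, and the filter leaves rows under about 10 counts untested. The standard error is the change divided by the square root of F. Alternatives were DESeq2 1.42.0, its size factors, no filter, the replicate block, each library left out and rows summed per gene. They were also applied, after the data were seen, to genes that are not members. Named genes were USP22, the members, DLD, ALB, AFP, per list the 2 called genes with the largest change in each direction, and the 3 rows most like PDK1 and PDHA1. The members and lists were chosen with earlier results of these data known. Gene models are GENCODE 29, and promoter sequences RefSeq on GRCh38.p14, which is not the authors' build.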

Additional observations from a re-analysis of the deposited data

How the results depend on the processing

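PDK1, counted from 1 row, and PDK3 fell under all 9 alternatives tried, with log2 fold changes of −2.10 to −1.84 and −1.64 to −1.16. Both passed under every alternative that kept all 4 libraries. PDK4 did not pass with DESeq2 (1.90, adjusted p = 0.137), and DLAT did not pass without control replicate 1 (0.65, adjusted p = 0.0803), so that 1 member rose under either setting. With one library left out DLAT ranged from 0.597 to 0.865. PDK2 (0.016 to 2.72) and PDHA1 (0.43 to 1.22) did not pass under any alternative. With one library left out the number of rows higher in knockdown ranged from 685 to 1340, with 685 without control replicate 1, and the members higher numbered 1 to 2. The labels do not say what equal replicate numbers share, and same-numbered libraries deviated together with r = 0.136 across rows. With the replicate number as a block, 1672 rows were higher, PDK4 and DLAT passed as well (1.91 and 0.71), and the calls of the other members did not change. In the lists, the block added GLRX5, GPT and HNF4A, so that 1 gene of lipoylation and pyruvate entry, 2 of other routes of pyruvate and 1 regulator were higher. DESeq2 called 1 gene of lipoylation and pyruvate entry higher, GLRX5. With one library left out, the genes higher ranged from 0 to 1 for lipoylation and pyruvate entry, from 0 to 2 for other routes of pyruvate and from 0 to 1 for the regulators. ALB, which did not pass, ranged from −0.397 without knockdown replicate 2 to 0.056 without knockdown replicate 1, a change of sign. The cause was not tested for any of these. Fits with fewer libraries or a block leave few residual degrees of freedom, and the reason for their low p-values was not tested. The rows of PDK2, PDHA1, PDP1, PDP2 and the other PDK3 row held at most 50 counts in any library, which limits their precision. The sources used here do not give how reads shared by several transcripts of a gene were counted.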
